A study of Mus musculus with 6 samples.

Results

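Histamine and serotonin are small amines that basophils and mast cells can store in granules. The genes described here are Hdc, Tph1, Slc18a2, Slc6a4 and Hrh4, which cover amine synthesis, vesicular storage, uptake and sensing. They were chosen by name, with earlier results of these data known, as 5 of the 24532 gene IDs in the deposited tables. Each was matched from its Entrez Gene ID to the mouse symbol. None of them encodes an antigen used in the sorts. RNA was sequenced from 3 populations sorted from bone marrow of C57BL/6J mice, with 2 libraries each that the series calls biological duplicates. BaP was labelled as a basophil precursor and was Lineage -, CD34 +, ckit - and MAR1 +. MAR1HI and MAR1INT shared a Lineage -, CD34 -, ckit - and CD200R3 + gate and differed in a high or intermediate MAR1 level (MAR1 is an antibody against the IgE-binding receptor chain encoded by Fcer1a). The labels give no age, sex or treatment and do not say whether animals were pooled.

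Histidine decarboxylase, the product of Hdc, makes histamine from histidine in a single step. Serotonin needs a pair of enzymes: tryptophan hydroxylase (Tph1 outside the brain) and the aromatic amino acid decarboxylase Ddc. The vesicular monoamine transporter VMAT2, encoded by Slc18a2, loads either amine into acidic vesicles in exchange for protons. The plasma membrane serotonin transporter encoded by Slc6a4 takes serotonin back into cells and is best known from platelets and neurons. The histamine H4 receptor, encoded by Hrh4, is a G protein-coupled receptor of blood cells and is found on basophils, mast cells and eosinophils.

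All 5 genes are protein coding, and positions are those of the files (mm10, counted from 1). Hdc (gene 15186) lies on chromosome 2 from 126593660 to 126618678. Its longest protein-coding transcript in GENCODE M21 has 12 exons. Slc6a4 (gene 15567) lies on chromosome 11 from 76998597 to 77032343 (15 exons). Slc18a2 (gene 214084) spans 59260878 to 59296012 of chromosome 19 (16 exons) and Tph1 (gene 21990) 46644641 to 46672537 of chromosome 7 (11 exons). No other listed gene overlapped any of them. The 250 bases before the RefSeq start are shown for Hdc and Slc6a4, which rose between the populations, and for Slc18a2, which was expressed in all of them without a called change. They are from GRCm38.p6 and read 5′ to 3′ on the gene's strand: chr2:126618679-126618928 (minus strand) for Hdc, chr11:76998347-76998596 (plus) for Slc6a4 and chr19:59260628-59260877 (plus) for Slc18a2. Capitals mark every match of GATA or GGGCGG on either strand.
Hdc: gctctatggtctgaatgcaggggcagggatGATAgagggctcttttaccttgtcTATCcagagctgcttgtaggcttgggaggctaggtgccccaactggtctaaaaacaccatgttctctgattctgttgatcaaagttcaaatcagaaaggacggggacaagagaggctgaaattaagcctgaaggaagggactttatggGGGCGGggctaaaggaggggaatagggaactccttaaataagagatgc
Slc6a4: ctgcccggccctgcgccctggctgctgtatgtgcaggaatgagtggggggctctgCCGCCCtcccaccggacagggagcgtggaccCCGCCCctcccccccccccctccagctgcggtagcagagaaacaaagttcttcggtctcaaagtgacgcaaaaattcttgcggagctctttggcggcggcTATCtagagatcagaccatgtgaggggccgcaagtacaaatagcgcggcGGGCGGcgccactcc
Slc18a2: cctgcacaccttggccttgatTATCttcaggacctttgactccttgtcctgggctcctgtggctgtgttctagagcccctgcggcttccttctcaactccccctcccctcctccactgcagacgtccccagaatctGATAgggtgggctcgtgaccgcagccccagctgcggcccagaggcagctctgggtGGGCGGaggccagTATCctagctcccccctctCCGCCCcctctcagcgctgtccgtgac
GATA, the core bound by GATA factors, matched 2 times for Hdc, 1 time for Slc6a4 and 3 times for Slc18a2. It matched in 53.6% of the 32851 RefSeq windows of the same length. GGGCGG, the GC box, matched 1, 3 and 2 times and was present in 32.7% of all windows. The cAMP response element TGACGTCA (1.55% of windows) and the STAT motif TTCNNNGAA (7.02% of windows) were searched on both strands and had no match in these windows, and no matches overlapped each other. A match is a description of letters only.

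The implied depth was similar in all libraries, between 4.75 and 5.28 gigabases of aligned sequence. MAR1INT stood apart in other ways, with 9604 and 9705 genes at 1 TPM or more against 10710 to 11544 elsewhere, and with 8.30% and 7.88% of TPM in histone genes against 12.1% to 18.7%. Its duplicates also differed more, with a root-mean-square SD over genes of 0.67 on the log2 scale against 0.42 and 0.43. An alternative without histone genes is given at the end. Beyond that, the part of these differences in the changes below was not tested. Levels below are TPM (StringTie's transcript abundance, scaled for gene length and library), and a group value is mean ± SD over its 2 libraries. Differences are log2 changes of TPM + 1 between group means, tested with limma over the 11337 genes that passed a filter on low values, with Benjamini-Hochberg adjustment. Called genes are those with an adjusted p below 0.05. The median tested gene changed by 0.24 between MAR1HI and BaP, by -0.36 between MAR1INT and MAR1HI and by -0.16 between MAR1INT and BaP, so each member's change is also given relative to that median. In bulk samples, fewer cells of a type and less RNA per cell cannot be told apart. Of 8 basophil markers, all were above 0 in every library. Mcpt8, the basophil protease used as a lineage marker, lay between 4839 and 6416 TPM in BaP and MAR1HI and at 2745 and 2161 in MAR1INT. In MAR1INT against BaP 4 of the 8 were called lower (Mcpt8 by -1.21, adjusted p = 0.00324) and 2 higher. The higher ones were Cd200r3 (1.59, adjusted p = 0.000269) and Gata2 (1.05, 0.00399). Over all tested genes 20.4% were called lower and 11.1% higher in this comparison.

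Hdc was the most abundant of the 5 genes in every library. The BaP libraries held 351 and 407 TPM, those of MAR1HI 625 and 768, and those of MAR1INT 902 and 945. The groups did not overlap, and the order was BaP, MAR1HI, MAR1INT. Hdc stood above 96.7% and 97.3% of tested genes in the BaP libraries and above 98.4% in both MAR1INT libraries. The read depth behind these values was high, with mean coverage per base from 1044 to 2373. The group levels were 379 ± 40.0 TPM in BaP, 697 ± 102 in MAR1HI and 924 ± 30.2 in MAR1INT (SD, n = 2).

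Between BaP and MAR1INT Hdc rose by 1.29 on the log2 scale (SE 0.19, limma adjusted p = 0.00119), which is 1.45 relative to the median gene. This call was kept in all 18 alternative analyses. Between BaP and MAR1HI the change was 0.87 (SE 0.19, adjusted p = 0.0493), close to the threshold and 0.63 relative to the median gene. Leaving out BaP replicate 1 ended that call (adjusted p = 0.318), as did leaving out BaP replicate 2 (0.139), MAR1HI replicate 1 (0.0908) and MAR1HI replicate 2 (0.307). It was kept in only 7 of the 18 alternatives. Besides the left-out libraries it was lost with a pseudocount of 0.1 (0.0835), no filter on low values (0.152), FPKM (0.0923), quantile normalization (0.0524), median-of-ratios scaling (0.167), no variance trend (0.216) and the replicate block (0.0763). Over all alternatives the adjusted p ran from 0.0110 to 0.318. Between MAR1HI and MAR1INT the change of 0.41 was not called (adjusted p = 0.177, 95% interval -0.02 to 0.84). It was 0.77 relative to the median gene, and it was called with median-of-ratios scaling (0.71, adjusted p = 0.0459).

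Tph1, the other synthesis gene, was listed at 0 in 5 of the 6 libraries. BaP replicate 2 held 0.103 TPM, with a mean coverage of 0.284 per base. Tph1 did not pass the filter on low values and was not tested. Its brain counterpart Tph2 and the second serotonin enzyme Ddc showed the same picture, listed at 0 in 5 libraries and at 0.341 and 0.778 TPM in BaP replicate 2. Since the capture baits are not described in the sources used here, a gene listed at 0 is not shown to be absent. An exact 0 can also sit beside a clear value, since 44 genes in BaP, 6 in MAR1HI and 89 in MAR1INT were listed at 0 in 1 library and at 10 TPM or more in its duplicate.

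Slc18a2 was well expressed in every population. It stood at 176 and 223 TPM in BaP, with 175 and 232 for MAR1HI and 268 and 243 for MAR1INT. The BaP and MAR1HI libraries overlapped almost fully, and both MAR1INT libraries lay above all the others. The group levels were 199 ± 32.9, 204 ± 40.3 and 255 ± 17.7 TPM (SD, n = 2). No contrast was called. The log2 change was 0.03 between BaP and MAR1HI (95% interval -0.48 to 0.54, adjusted p = 0.963), -0.21 relative to the median gene, and its sign depended on the scaling. It was 0.34 between MAR1HI and MAR1INT (-0.17 to 0.85, 0.351) and 0.36 between BaP and MAR1INT (-0.15 to 0.87, 0.251). These intervals leave room for a change in either direction. Relative to the median gene the last pair were 0.69 and 0.53, and with median-of-ratios scaling the change between MAR1HI and MAR1INT was called (0.63, adjusted p = 0.0443).

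On the log2 scale, Slc6a4 had the widest range of the 4 tested genes. It stood at 2.82 and 0.444 TPM in BaP, while MAR1HI held 18.7 and 21.0 and MAR1INT held 111 and 121. The groups were far apart, while the BaP libraries differed from each other at a mean coverage of 8.39 and 1.28 per base. In MAR1INT the coverage was 264 and 303, and the gene stood above 89.2% and 90.7% of tested genes, against 14.7% and 2.29% in BaP. The group levels were 1.63 ± 1.68, 19.8 ± 1.61 and 116 ± 6.42 TPM (SD, n = 2).

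Slc6a4 rose at each step. The log2 change was 3.15 between BaP and MAR1HI (SE 0.46, adjusted p = 0.0107) and 2.49 between MAR1HI and MAR1INT (SE 0.46, adjusted p = 0.00700). Over the whole span from BaP to MAR1INT it was 5.64 (adjusted p = 7.88e-05), the seventh largest change among 1263 genes called higher. Relative to the median gene the changes were 2.91, 2.85 and 5.80. The size of the first step depends on the pseudocount, being 3.98 with 0.1 and 1.93 with 5. The calls of the single steps were lost without MAR1HI replicate 1 (adjusted p = 0.102 and 0.0901) and without MAR1HI replicate 2 (0.298 and 0.104), although the changes were then between 2.41 and 3.23. They were also lost with a pseudocount of 0.1 (0.0687 and 0.0582) and with no filter on low values (0.117 and 0.0701). The call over the whole span was kept in all 18 alternatives.

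Hrh4 (gene 225192) lies on chromosome 18 from 13006990 to 13022882 (3 exons). It stood at 51.9 and 53.9 TPM in BaP, with 218 and 244 for MAR1HI and 344 and 386 for MAR1INT. The duplicates lay close together and the groups did not overlap. The group levels were 52.9 ± 1.44, 231 ± 18.5 and 365 ± 29.6 TPM (SD, n = 2). Hrh4 thus moved from above 79.1% and 80.7% of tested genes in BaP to above 96.5% and 96.9% in MAR1INT.

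Between BaP and MAR1HI Hrh4 rose by 2.11 (SE 0.20, adjusted p = 0.00152), and by 2.76 between BaP and MAR1INT (adjusted p = 5.68e-05). These were 1.87 and 2.92 relative to the median gene. The call of the first step was lost with no filter on low values (adjusted p = 0.0659). It was also lost without MAR1HI replicate 1 or MAR1HI replicate 2, where the change was 2.19 and 2.02. The change of 0.65 between MAR1HI and MAR1INT, 1.01 relative to the median gene, was not called (adjusted p = 0.0554, 95% interval 0.20 to 1.11). It was called with FPKM (0.64, adjusted p = 0.0331), quantile normalization (0.71, 0.0212) and median-of-ratios scaling (0.95, 0.0187).

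**Figure D1:**
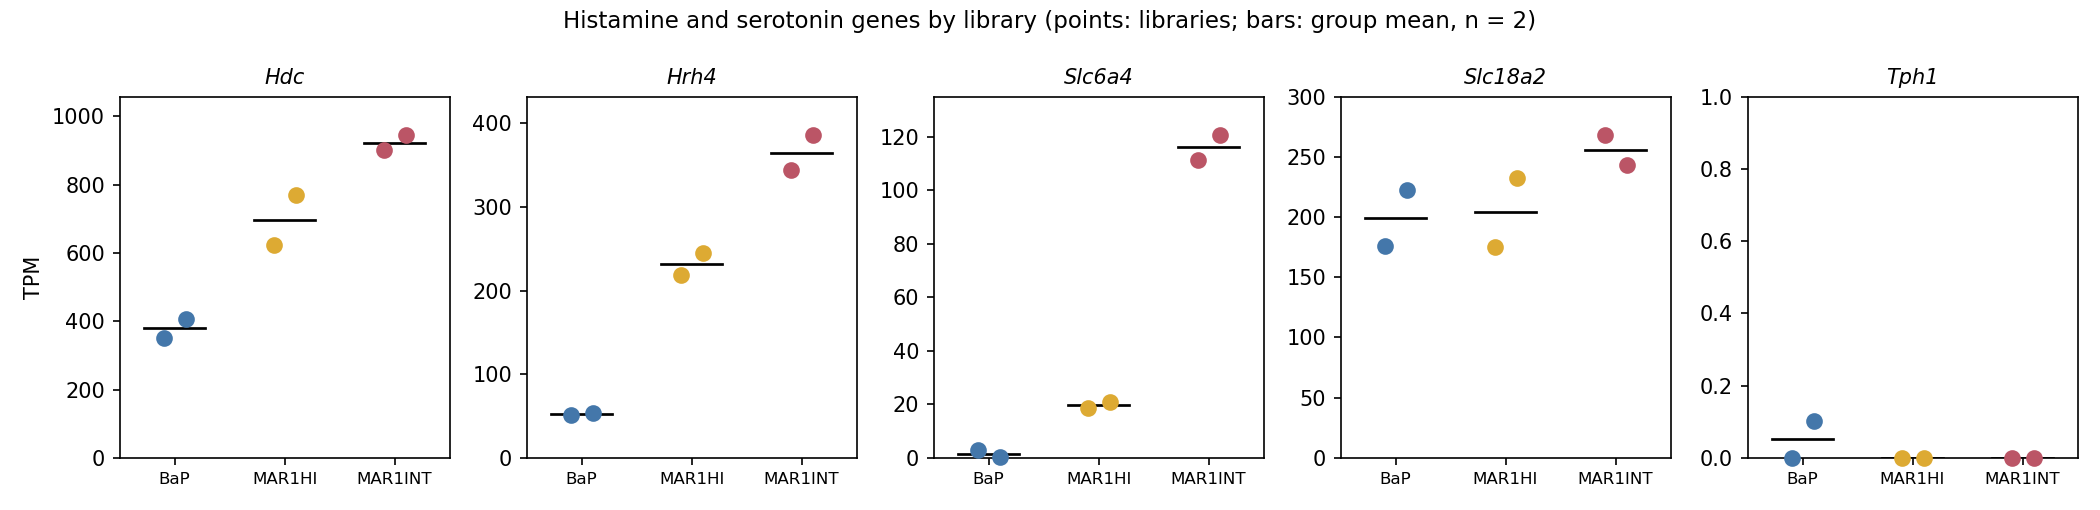
TPM of the 5 genes in each library, with each vertical axis starting at 0 and bars at the group mean (n = 2). Hdc, Hrh4 and Slc6a4 are ordered BaP, MAR1HI, MAR1INT without overlap, Slc18a2 lies between 175 and 268 TPM throughout, and Tph1 does not exceed 0.103 TPM.

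Of the 5 genes, 3 (Hdc, Hrh4 and Slc6a4) were called higher in MAR1HI than in BaP, a comparison in which 1.83% of all tested genes were called higher and 0.662% lower. Slc6a4 alone was called higher in MAR1INT than in MAR1HI, where 2.29% were called higher and 14.5% lower. That count was 4 with median-of-ratios scaling, 2 with FPKM, 2 with quantile normalization, and 0 without MAR1HI replicate 1, without MAR1HI replicate 2, with a pseudocount of 0.1 or with no filter. The count of 3 in MAR1HI against BaP was 1 with a pseudocount of 0.1 and 0 with no filter. It was 2 with FPKM, quantile normalization, median-of-ratios scaling, no variance trend or the replicate block, where Hdc alone lost its call. It was also smaller with either BaP library or either MAR1HI library left out. The 3 genes were called higher in MAR1INT than in BaP, against 11.1% of tested genes higher and 20.4% lower. By limma's F test over the 3 populations, the same 3 genes passed (adjusted p = 0.00310 for Hdc, 0.000119 for Hrh4 and 0.000192 for Slc6a4) and Slc18a2 did not (0.376), against 26.6% of all tested genes. Libraries ordered BaP, MAR1HI, MAR1INT with no overlap were found for 3 of the 4 tested members and for 7.82% of all tested genes. A call upward at both steps was found for Slc6a4 and for 0.547% of tested genes. The first step made up 0.68 of the whole log2 change for Hdc, 0.76 for Hrh4 and 0.56 for Slc6a4 in the main fit. These shares depend on the scaling and the pseudocount. With median-of-ratios scaling the first and second steps were 0.57 and 0.71 for Hdc, 1.81 and 0.95 for Hrh4, and 2.89 and 2.77 for Slc6a4. With a pseudocount of 5 those of Slc6a4 were 1.93 and 2.29.

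**Figure D2:**
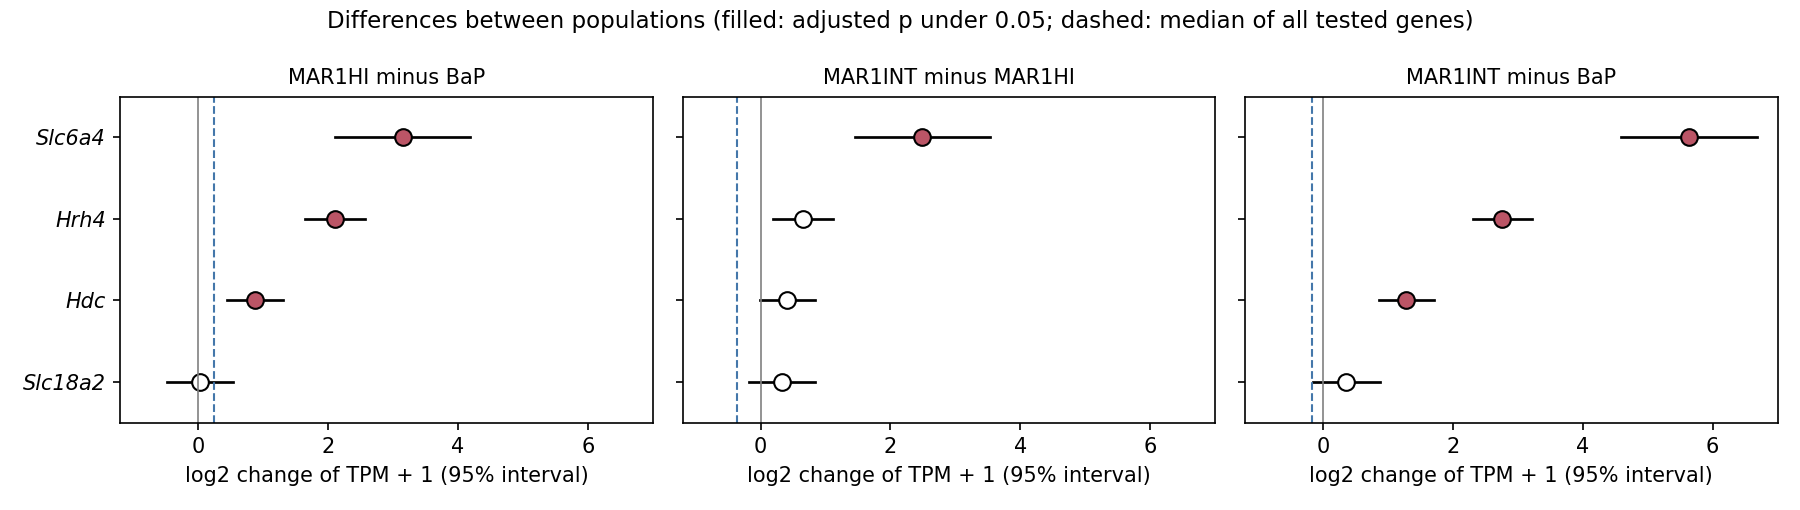
Log2 changes of TPM + 1 with 95% intervals for the 4 tested genes in each comparison. Filled points were called, and the dashed line is the median of all tested genes. Slc6a4 lies at 3.15, 2.49 and 5.64, and every interval of Slc18a2 includes 0.

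Ratios between genes within a library do not depend on how that library was scaled. Hrh4 stood at 14.8% and 13.2% of the Hdc level in BaP, with 34.9% and 31.8% for MAR1HI and 38.1% and 40.8% for MAR1INT. BaP was thus set apart from both CD34-negative populations. Slc6a4 stood at 0.804% and 0.109% of Hdc in BaP, then 2.99% and 2.73% for MAR1HI and 12.4% and 12.8% for MAR1INT. This ratio was higher in each population than in the one before, without overlap. Slc18a2 went the other way, from 50.2% and 54.7% of Hdc in BaP to 28.1% and 30.2% for MAR1HI, with 29.7% and 25.7% for MAR1INT. The transcript of the vesicle loader was thus lower relative to that of the enzyme in all 4 CD34-negative libraries, which overlapped each other. Between the transporters, Slc6a4 stood at 1.60% and 0.199% of Slc18a2 in BaP and at 41.6% and 49.6% in MAR1INT. The ratios were not tested and are given as a description.

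**Figure D3:**
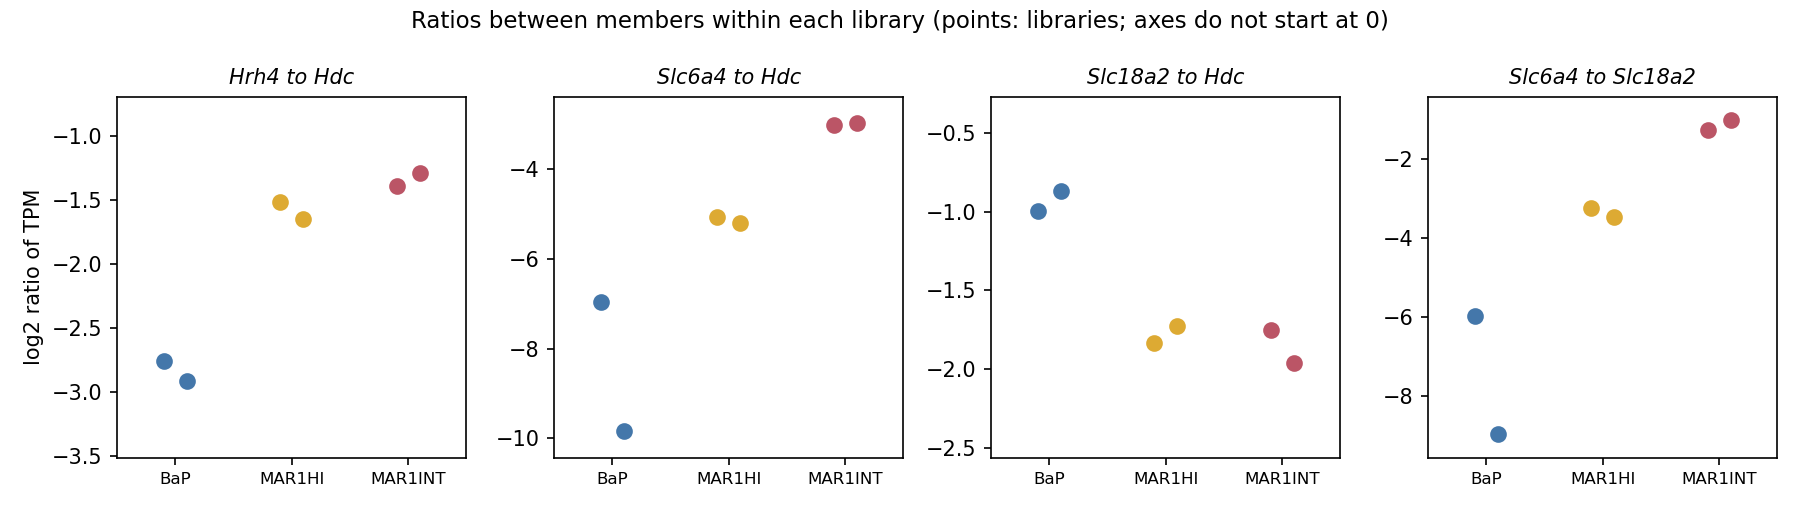
Log2 ratios of TPM between genes in each library; the vertical axes do not start at 0. Slc18a2 to Hdc lies at -0.99 and -0.87 in BaP and between -1.96 and -1.73 in the other 4 libraries.

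Profiles over the 6 libraries were compared by the root-mean-square difference of log2(TPM + 1) after centring each gene. The nearest profiles to Hdc were those of Pdk2, a pyruvate dehydrogenase kinase (difference 0.05), Carns1, the carnosine synthase (0.06), and Esyt2, an extended synaptotagmin (0.06). Esyt2 went from 71.9 and 78.0 TPM in BaP to 171 and 175 in MAR1INT. Nearest to Hrh4 were F2r, the thrombin receptor PAR1 (0.12), Otoa (0.16) and Cd226, an adhesion receptor (0.16). Cd226 stood at 18.9 and 18.0 TPM in BaP and 137 and 122 in MAR1INT.

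No profile was as near to Slc6a4. The closest were the chemokine gene Ccl6 (0.44), Evi2b (0.45), a membrane protein gene, and the adaptor gene Skap1 (0.68). Ccl6 went from 49.4 and 48.4 TPM in BaP to 350.5 and 376 in MAR1HI and 1885 and 1736 in MAR1INT. Nearest to Slc18a2 were Ubn2 (0.04), the peptide transporter gene Tap1 (0.06) and the metabolic enzyme gene H6pd (0.06). Small differences are common among genes that change little.

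The rest of amine handling was read from 8 lists with 91 genes, of which 55 were tested and 16 were listed at 0 in every library. Over these lists 2 genes were called higher and 0 lower in MAR1HI against BaP (2.49% of all tested genes called). The median change was 0.13, against 0.24 over all genes. In MAR1INT against MAR1HI 0 were higher and 8 lower (16.8% of all tested genes called, medians -0.25 and -0.36). In MAR1INT against BaP 9 were higher and 10 lower (31.5%, medians -0.16 and -0.16). The counts moved with the libraries. Without BaP replicate 1, BaP replicate 2, MAR1HI replicate 1, MAR1HI replicate 2, MAR1INT replicate 1 and MAR1INT replicate 2, in that order, the first comparison had 0, 1, 0, 0, 10 and 10 calls. The second had 5, 5, 3, 0, 7 and 10, and the third 12, 13, 19, 19, 21 and 24. Of the 19 calls in MAR1INT against BaP, 10 were kept in every alternative in which the gene was tested, among them those of Htr1b, Aoc1, Slc22a3, Pcbd1, Slc7a8, Atp6v1b2, Chst15, Gata2 and Cebpa. Aoc1 and Pcbd1 were not tested with the filter of a mean TPM of 5 or more. None of the 2 and 8 calls of the other comparisons was kept throughout.

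Of 17 other histamine and serotonin receptors 2 were tested, and both rose between BaP and MAR1INT, against 11.1% of all tested genes. Htr1b, the serotonin 1B receptor that couples to inhibitory G proteins, stood at 18.2 and 30.0 TPM in BaP, against 77.1 and 165 in MAR1HI and 121 and 96.8 in MAR1INT. MAR1HI and MAR1INT overlapped and both lay above BaP. Htr1b rose between BaP and MAR1HI (2.22, adjusted p = 0.0209) and between BaP and MAR1INT (2.16, 0.00294), and its first call was lost without BaP replicate 1 (0.0907), MAR1HI replicate 1 (0.0851) or MAR1HI replicate 2 (0.298). Hrh2, the histamine H2 receptor, stood at 9.0 and 13.8, 20.3 and 25.3, and 35.3 and 29.8 TPM. Its 3 groups did not overlap, and MAR1INT was higher than BaP (1.46, adjusted p = 0.0123), a call lost without BaP replicate 1 (0.135). Hrh1 and Hrh3 were listed at 0 in all libraries, and none of the other receptors passed the filter.

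Of 9 other amine transporters 2 were tested, and 1 of them was called. Slc22a3, the organic cation transporter OCT3 that carries histamine and serotonin across the plasma membrane, stood at 62.3 and 72.7 TPM in BaP, while MAR1HI held 45.8 and 71.7 and MAR1INT held 15.7 and 8.22. BaP and MAR1HI overlapped and MAR1INT lay below both. Slc22a3 fell in MAR1INT against MAR1HI (-2.23, SE 0.37, adjusted p = 0.00384) and against BaP (-2.46, 0.00120). The first of these was lost without MAR1HI replicate 2 (0.0878). Slc18a1, the sister vesicular transporter VMAT1, stood at 0.229 and 0.0637 TPM in BaP, against 1.3 and 4.17 in MAR1HI and 1.0 and 3.81 in MAR1INT. Both later populations lay above BaP, with no call (1.59, adjusted p = 0.179, and 1.44, 0.0764). The neuronal transporter genes Slc6a2 and Slc6a3 and the transporter gene Slc29a4 did not exceed 0.0428 TPM.

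Among enzymes of amine breakdown 4 of 10 were tested. Aoc1, the diamine oxidase that degrades extracellular histamine, stood at 2.85 and 4.59 TPM in BaP and 2.52 and 2.62 in MAR1HI, and was listed at 0 in both MAR1INT libraries. It was called lower in MAR1INT in both contrasts (adjusted p = 0.0158 against MAR1HI, lost without MAR1HI replicate 1 at 0.0807 and replicate 2 at 0.103, and 0.00349 against BaP). Hnmt, the methyltransferase that inactivates histamine inside cells, stood at 9.14 and 7.11 TPM in BaP, with 0.465 and 5.46 for MAR1HI and 7.29 and 0 for MAR1INT, with no call. Maoa, which oxidises serotonin, reached 4.54 TPM at most and was not called. Aldh2, an aldehyde dehydrogenase, was the most abundant of the list at 114 to 155 TPM, with no call.

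Of 12 genes for other synthesis steps and cofactors 7 were tested. Qdpr and Pcbd1, which regenerate the tetrahydrobiopterin that tryptophan hydroxylase uses, were lower in MAR1INT. Qdpr stood at 23.8 and 19.9 TPM in BaP, while MAR1HI held 16.2 and 22.7 and MAR1INT held 8.0 and 6.82 (-1.44 against BaP, adjusted p = 0.0157). That call was lost without BaP replicate 1 (0.159) or BaP replicate 2 (0.0849). Pcbd1 stood between 3.20 and 5.21 TPM in BaP and MAR1HI and was listed at 0 in both MAR1INT libraries (adjusted p = 0.00290 against BaP). The level of Gch1, the first enzyme of tetrahydrobiopterin synthesis, was at most 1.14 TPM. Pts, the next enzyme, was the most abundant of the list (33.4 to 61.3 TPM) and was not called.

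**Figure D4:**
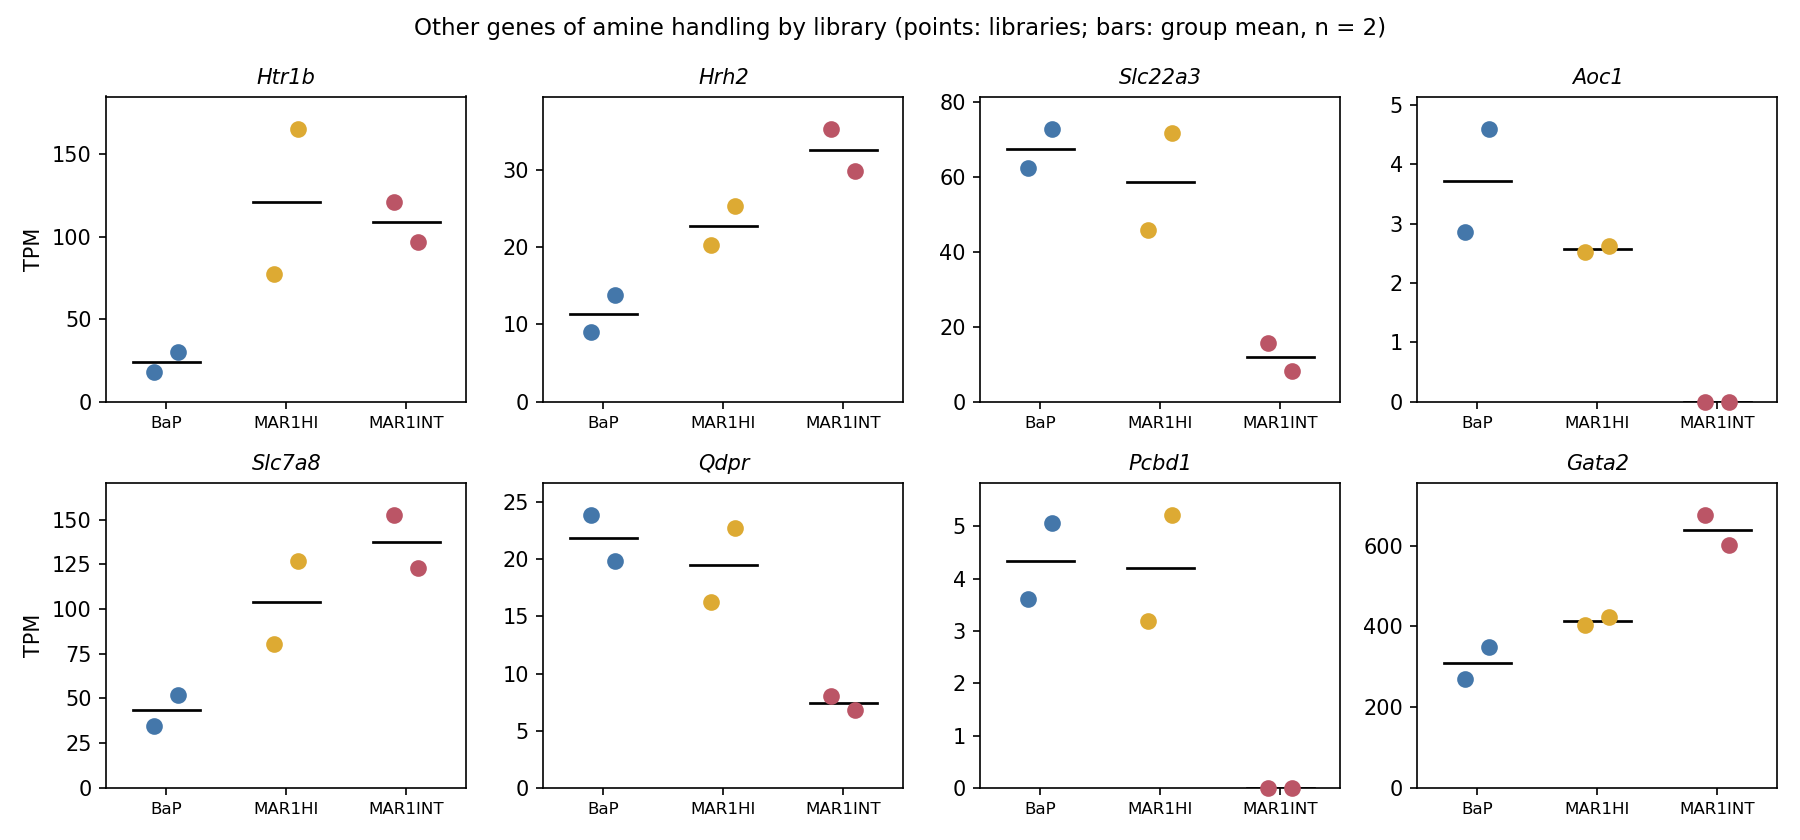
TPM in each library of 8 other genes of amine handling, with axes starting at 0 and bars at the group mean (n = 2). Htr1b, Hrh2, Slc7a8 and Gata2 are lowest in BaP, and Slc22a3, Aoc1, Qdpr and Pcbd1 are lowest in MAR1INT.

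Of 8 amino acid carriers, 6 were tested. Slc7a8 (LAT2), a carrier of neutral amino acids that include the amine precursors, was at 34.7 and 51.9 TPM in BaP, while MAR1HI held 80.7 and 127 and MAR1INT held 152 and 123. It rose between BaP and MAR1INT (1.67, adjusted p = 0.00332), while MAR1HI and MAR1INT overlapped. Slc15a3, an endolysosomal histidine and peptide carrier, stood at 3.29 and 6.10 TPM in BaP and 0.726 and 0 in MAR1INT (-2.07, adjusted p = 0.00973, lost without BaP replicate 2 at 0.0573).

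All 16 genes of the vesicular proton pump, which makes the gradient that VMAT2 uses, were tested. None was called between BaP and MAR1HI, 3 were lower in MAR1INT than in MAR1HI, and 2 were higher and 2 lower in MAR1INT than in BaP. Over all tested genes, 14.5% were lower in MAR1INT than in MAR1HI, and 11.1% were higher and 20.4% lower in MAR1INT than in BaP, so these counts are near the background. Atp6v1b2 stood at 145 and 176 TPM in BaP and 372 and 413 in MAR1INT (1.29, adjusted p = 0.00310). Atp6v0b rose as well (1.11, 0.00847, lost without BaP replicate 1 at 0.0621). Atp6v0a1, the most abundant subunit, fell from 399 and 449 to 228 and 216 TPM (-0.93, 0.00712, lost without BaP replicate 2 at 0.0616). Atp6ap2 fell too (-1.10, 0.0118, lost without BaP replicate 1 at 0.0509, BaP replicate 2 at 0.0556 and MAR1INT replicate 1 at 0.0857). Atp6ap2 (-1.04, adjusted p = 0.0256), Atp6v1a (-1.38, 0.0296) and Atp6v1c1 (-0.99, 0.0306) were the 3 lower in MAR1INT than in MAR1HI. None of these calls was kept with no filter on low values (adjusted p = 0.107, 0.084 and 0.0788) or with either MAR1HI library left out. Each was also lost in other alternatives.

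Histamine is held in granules by the glycosaminoglycan chains of serglycin. The serglycin gene Srgn was not called in any contrast and stood between 672 and 876 TPM. Of the 11 genes of this list, Chst15, a chondroitin sulfotransferase, rose from 27.6 and 38.5 TPM in BaP to 74.5 and 117 in MAR1HI (1.49, adjusted p = 0.0346). Its level in MAR1INT was 153 and 136 TPM (2.11 against BaP, 0.000828). The first of these calls was lost without BaP replicate 1 (0.225), BaP replicate 2 (0.0588), MAR1HI replicate 1 (0.0851) or MAR1HI replicate 2 (0.307). Xylt1, which starts the chains, and Chsy1, a chondroitin synthase, were lower in MAR1INT than in BaP (-1.34, adjusted p = 0.00923, and -1.30, 0.0176). Without BaP replicate 1 these were 0.0646 and 0.145, and without BaP replicate 2 they were 0.0795 and 0.138.

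Of 8 transcription factors linked to Hdc or to the lineage, 7 were tested and 3 rose between BaP and MAR1INT, against 11.1% of all tested genes. Gata2, known to drive Hdc transcription in mouse mast cells and basophils, stood at 269 and 348 TPM in BaP, with 404 and 424 for MAR1HI and 675 and 602 for MAR1INT (1.05 against BaP, adjusted p = 0.00399). The libraries of Gata2, and of Cebpa and Stat5b below, were ordered BaP, MAR1HI, MAR1INT without overlap, as were those of 7.82% of all tested genes. A link to the change of Hdc was not tested. Cebpa, a myeloid factor of basophil differentiation, stood at 324 and 365, 417 and 458.5, and 700 and 635 TPM (0.95, 0.00451). Stat5b, a signal transducer of interleukin 3, was higher in MAR1INT than in BaP (1.08, 0.0208, lost without BaP replicate 1 at 0.144). Mitf, the mast cell factor, was at 1.42 TPM at most and did not pass the filter.

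Slc6a4 and Slc18a2 are also platelet genes and Tph1 and Hdc are also mast cell genes, so markers of those cells were read beside them. Of 11 megakaryocyte and platelet markers, the integrin genes Itga2b and Itgb3 made up most of the sum. All 11 summed to 271 and 288 TPM in BaP, with 445 and 578 for MAR1HI and 509 and 431 for MAR1INT, lowest in BaP. Itga2b stood at 238 and 261, 398 and 529, and 436 and 338 TPM and was not called. The other 9 summed to 29.5 and 19.5 TPM in BaP, while MAR1HI held 20.8 and 16.4 and MAR1INT held 6.85 and 9.54. The full list and the list without the integrin genes thus ran in different orders, and the part of such cells in the change of Slc6a4 was not tested. Pf4, the platelet chemokine, reached 13.3 and 4.28 TPM in BaP but was at 0 in MAR1INT, and Gp6 and Treml1 were listed at 0 in every library. Ppbp, another platelet chemokine gene, was highest in MAR1INT at 6.17 and 5.02 TPM and was not called. It stood at 3.30 and 0 TPM in BaP, with 2.77 and 0.829 for MAR1HI. Of the 11 markers 5 were tested. In MAR1INT against BaP 1 was called higher (Itgb3) and 2 lower, against 11.1% and 20.4% of all tested genes. The lower ones were Pf4 (-3.12, adjusted p = 0.00941) and Gp1ba (-2.56, 0.0189). Gp1ba lay between 10.9 and 15.3 TPM in BaP and MAR1HI, against 0 and 4.11 for MAR1INT. It was also called lower in MAR1INT than in MAR1HI (-2.78, 0.0232). Itgb3 stood at 3.55 and 7.69 TPM in BaP, with 25.6 and 33.0 for MAR1HI and 66.4 and 83.9 for MAR1INT, and like Slc6a4 was called at both steps (2.26, adjusted p = 0.0201, and 1.33, 0.0441). Those calls were lost without MAR1HI replicate 1 (0.102 and 0.191), without MAR1HI replicate 2 (0.305 and 0.163), without BaP replicate 1 (first step, 0.137) and without MAR1INT replicate 2 (second step, 0.0515).

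**Figure D5:**
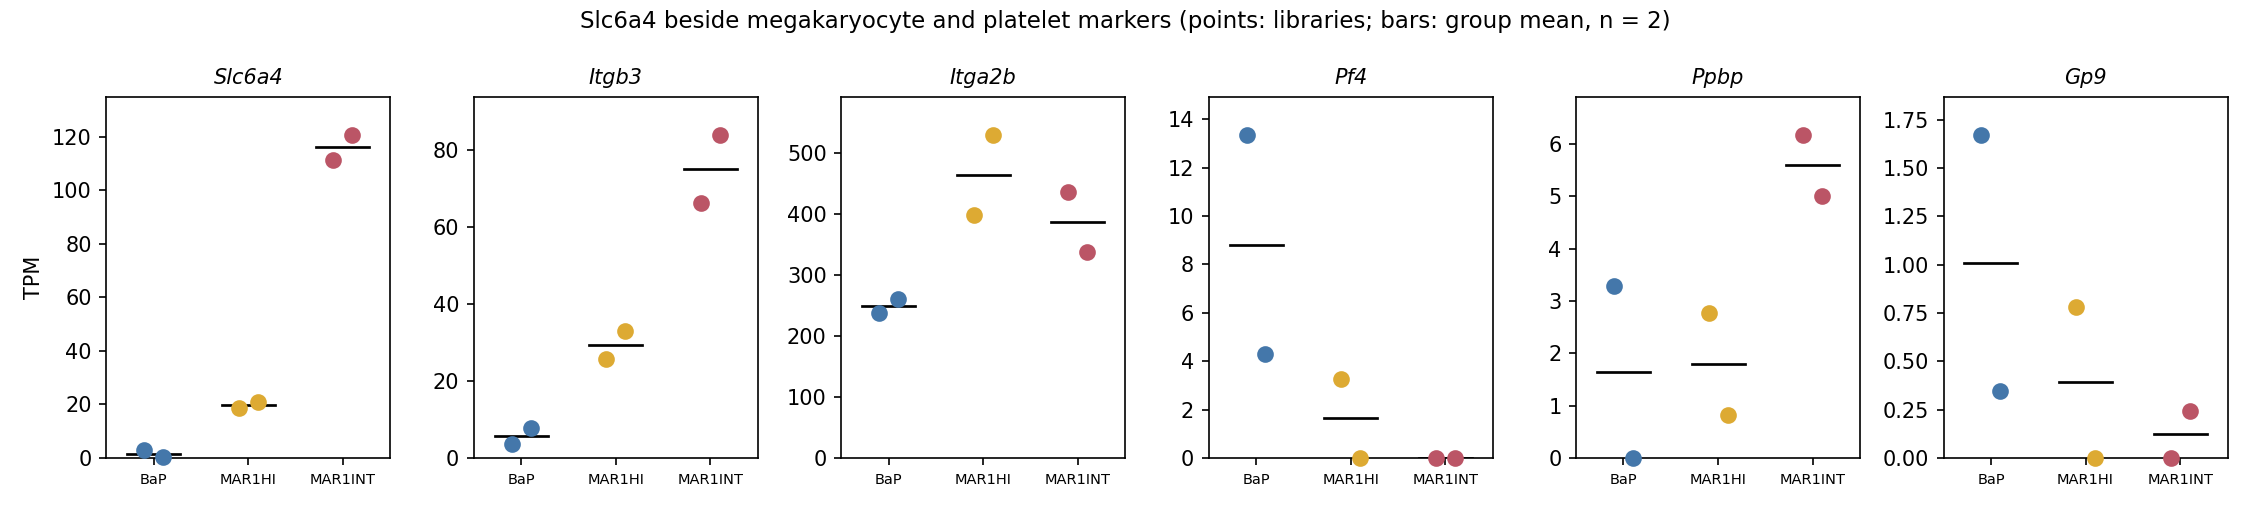
TPM of Slc6a4 and 5 megakaryocyte and platelet markers in each library, with axes starting at 0 and bars at the group mean (n = 2). Slc6a4 and Itgb3 are highest in MAR1INT, where Pf4 is listed at 0 and Gp9 does not exceed 0.245 TPM.

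Of 10 mast cell markers, 9 were listed at 0 in both MAR1INT libraries. Kit, the gene of the ckit antigen in the gates, stood at 44.9 and 38.6 TPM in BaP. It stood at 2.94 and 4.36 TPM in MAR1HI and at 0.0446 and 0.449 in MAR1INT. Kit was called lower in MAR1HI than in BaP, and lower in MAR1INT than in both. Without Kit, the list summed to 0.186 and 3.97 TPM in BaP, 1.14 and 0.529 in MAR1HI and 0 in MAR1INT. The connective tissue mast cell protease Cma1 was at 0.186 TPM at most. Markers of other marrow cells were present, and their part in the members' changes was not tested. The 11 neutrophil markers summed to 6175 and 11150.1 TPM in BaP, while MAR1HI held 4901 and 3765 and MAR1INT held 3924 and 3291. The 9 eosinophil markers summed to 2166 and 1152, 109 and 158, and 213 and 349 TPM. Of these 9, 8 were tested. In MAR1INT against BaP 5 were called lower and 2 higher, against 20.4% and 11.1% of all tested genes. The higher ones were Ccr3, the eotaxin receptor gene, at 5.61 and 5.30 TPM in BaP, with 28.2 and 39.3 for MAR1HI and 131 and 120.4 for MAR1INT, and Siglecf, at 21.9 and 20.9, 29.5 and 44.5, and 79.5 and 109.8 TPM. Prg2, the granule major basic protein gene, made up most of the sum in BaP, at 1584 and 934 TPM, and Epx, the eosinophil peroxidase gene, was listed at 0 in MAR1INT. The 9 erythroid markers summed to 1544 and 2314, 1200.4 and 604, and 2779 and 1262 TPM. The 9 monocyte and macrophage markers summed to 274 and 351 TPM in BaP and to between 93.0 and 130.4 elsewhere, and the 10 dendritic cell markers to 997 and 385 TPM in BaP and at most 82.6 elsewhere. The B and plasma cell markers summed to at most 40.4 TPM and the T and NK cell markers to at most 6.80.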

How the data were processed

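Groups and replicate numbers were taken from the sample titles. Per the labels' protocols, extraction used TRIZol LS and the libraries came from a SureSelectXT RNA direct kit, a capture method, so levels also depend on baits that are not given in the sources used here. Trimmomatic, HISAT2, StringTie and mm10 are named by the submitters' processing notes, without versions or options. The tables give coverage (a signal, mean read depth per base), FPKM and TPM per gene, per the file headers. The authors' TPM summed to 1000000 in each library. Aligned bases were read from the ratio of the authors' coverage to their FPKM. Without read counts, counting intervals and floors are not given.

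Values of gene IDs in several parts were summed, and 24462 of 24532 IDs matched a symbol of GRCm38.p6. A gene was tested where 2 or more libraries held at least 1 TPM, as log2(TPM + 1) with limma 3.58.1 (R 4.3.3, eBayes with trend), 1 term per group over all 6 libraries (3 residual degrees of freedom, median prior 6.39). This scale understates changes of genes at a low level. The functions were tested on simulated data. Members and lists were chosen with earlier results of these data known. Named from each list were the genes called in any comparison (at most 6) and the most abundant one; 3 nearest profiles were named per member. A gene that this rule names is not reported here. Other markers were named after their values were seen. There were 18 alternatives: pseudocounts of 0.1 and 5, a pair of other filters, FPKM, 3 other scalings, a pair of variance models, the replicate block, only the groups compared, and each library left out. Promoter sequences are RefSeq's (GRCm38.p6), found for 4 of the 5 genes and trimmed to the bases before the start. Tables and plots were made in Python 3.11.15 (matplotlib 3.10.9, numpy 2.4.6, pandas 2.3.3).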

Additional observations from a re-analysis of the deposited data

How the results depend on the processing

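Over the 18 alternatives and 4 tested genes, 184 log2 changes kept their direction and side of the threshold, 22 lost a call, 5 gained one and 5 changed sign. The sign changes were all of Slc18a2 between BaP and MAR1HI: -0.20 with FPKM, -0.20 after quantile normalization, -0.27 with median-of-ratios scaling, -0.14 without BaP replicate 1 and -0.18 without MAR1HI replicate 2. With a library left out this change ran from -0.18 to 0.23. Of the called changes of genes in the 8 lists, 445 kept their call under an alternative and 72 lost it. With TPM scaled without histone genes, no member's call changed. Between MAR1HI and MAR1INT the changes were then 0.29 for Hdc, 0.53 for Hrh4, 0.22 for Slc18a2 and 2.38 for Slc6a4. With all genes they were 0.41, 0.65, 0.34 and 2.49.

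Members called in MAR1HI against BaP numbered 3, and 1 with pseudocount 0.1 and 0 with no filter on low values. They numbered 2 with FPKM, quantile normalization, median-of-ratios scaling, no trend or the replicate block. They also numbered fewer with either library of BaP or MAR1HI left out. In MAR1INT against MAR1HI they numbered 1, and 0 with pseudocount 0.1, 0 with no filter, 2 with FPKM, 2 after quantile normalization, 4 with median-of-ratios scaling and 0 to 1 with a library left out. In MAR1INT against BaP and by the F test they numbered 3 with any library left out. Of the other pathway genes, 2 were called in MAR1HI against BaP, and 0 with pseudocount 0.1, 4 with pseudocount 5, 0 with no filter, 4 with a mean TPM of 5 or more, 4 after quantile normalization, 0 with no trend, 4 with the robust variance, 10 with only the groups compared, and 0 to 10 with a library left out. In MAR1INT against MAR1HI there were 8, and 1 with no filter, 5 after quantile normalization, 5 with only the groups compared and 0 to 10 with a library left out, and in MAR1INT against BaP 19, and 12 to 24. Smaller shifts in the counts of other pathway genes are not listed. The cause of the shifts was not tested. A left-out library leaves fewer samples, and a lone library is then assumed to vary like the others.

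The replicate numbers were not treated as pairs in the main fit. Deviations of replicate 1 from the group mean correlated across genes at 0.15 between BaP and MAR1HI. The correlations were -0.09 for BaP and MAR1INT and -0.06 for MAR1HI and MAR1INT. With 2 libraries per group, these values cannot decide whether samples of the same number shared animals or a batch. With the replicate block Hdc lost its call between BaP and MAR1HI (adjusted p = 0.0763), leaving 2 of the 3 members called, and no other member's call changed. Depth limits Slc6a4 in BaP, at a coverage of 1.28 and 8.39 per base. Whether duplicates came from separate animals is not stated beyond the word biological. The p-values thus rest on the spread between these libraries, shared over the groups and moderated by that of all tested genes. Over all tested genes the MAR1INT duplicates differed more than the others (0.67 against 0.42 and 0.43), which a shared spread does not separate.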

Other observations

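Slc6a4 belongs to the SLC6 family of sodium-coupled carriers, which was read after its values were seen. Of 19 listed SLC6 genes, 4 were tested, and the others did not exceed 0.949 TPM in any library. Slc6a9, the glycine transporter GlyT1, stood at 1.26 and 1.54 TPM in BaP, with 8.99 and 11.9 for MAR1HI and 37.3 and 37.4 for MAR1INT. The groups did not overlap, and limma called Slc6a9 higher between BaP and MAR1HI (2.25, adjusted p = 0.0209), between MAR1HI and MAR1INT (1.75, 0.0158) and over the whole span (4.0, 0.000167). The first call was lost without BaP replicate 1 (0.166), BaP replicate 2 (0.117), MAR1HI replicate 1 (0.0851) or MAR1HI replicate 2 (0.275), and the second without MAR1HI replicate 1 (0.0830) or MAR1HI replicate 2 (0.0742). The taurine transporter gene Slc6a6 stood between 20.2 and 39.6 TPM and was not called in any contrast. Slc6a13, a carrier of GABA and taurine, was at 7.26 and 2.31 TPM in BaP and 1.35 and 0 in MAR1INT (-1.77, adjusted p = 0.0423). That call lay close to the threshold at low levels, and its dependence on the alternatives was not examined.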
